A study of Mus musculus with 8 samples.

Results

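The 9 genes described here encode transcription factors that set and keep the character of the hepatocyte, the main cell of the liver. They are Hnf4a, Foxa1, Foxa2, Cebpa, Cebpb, Nr1i2, Nr1i3, Nr5a2 and Thrb, chosen by symbol as 9 of the 38283 genes in the deposited liver expression table. RNA was sequenced from the livers of male mice on the C57BL/6 background, either RORα f/f mice, in which exons 4 and 5 of Rora are flanked by loxP sites and no Cre is present, or RORα LKO littermates, which carry the same floxed alleles and Cre driven by the albumin promoter, active in hepatocytes. From 8 weeks of age both genotypes were fed a control diet (CD) or a high-fat diet (HFD, 60% of calories from fat) for 10 weeks. Each library pooled the livers of 2 mice, and 2 libraries were made for each of the 4 groups, so that the 8 libraries cover 4 mice a group and the spread between mice within a pool is not seen. All groups carry the floxed alleles, and Cre without floxed alleles was not analysed here.

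Hepatocyte identity rests on a small set of factors that bind together at liver enhancers and at each other's genes. HNF4α is a nuclear receptor that holds most hepatocyte genes active, FOXA1 and FOXA2 are forkhead pioneer factors that open chromatin, and C/EBPα and C/EBPβ are basic leucine zipper factors associated with metabolic maturity and with the acute-phase response respectively. CAR (Nr1i3) and PXR (Nr1i2) are the receptors that sense foreign chemicals and induce drug-metabolising enzymes, LRH-1 (Nr5a2) acts on bile acid and cholesterol genes, and TRβ (Thrb) is the main thyroid hormone receptor of hepatocytes. RORα, the factor deleted in the LKO mice, is itself a nuclear receptor that binds DNA at a nuclear receptor half-site preceded by an AT-rich stretch.

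The values are FPKM, that is, fragments corrected for the length of the transcript and the number of mapped reads. The table holds no read counts, so no counting error can be given, and the depth of a library is not known from it. Each library had 10587 to 10706 genes over 1 FPKM, and its top 10 genes held 29.7% to 43.7% of all FPKM. Rora, the check of the labels, had 8.85 and 8.59 FPKM in CD-fed f/f libraries, 7.96 and 8.18 in CD-fed LKO libraries, 7.56 and 7.86 in HFD-fed f/f libraries and 7.30 and 8.02 in HFD-fed LKO libraries. The genotypes overlapped on HFD, and because the value covers the whole gene and not only the deleted exons, libraries are called LKO-labelled and f/f-labelled and every direction between genotypes rests on the labels. Alb, the albumin gene, was listed at 0 in 4 of the 8 libraries and between 29902 and 30888 FPKM in the others, so a listed 0 can be a failed estimate, but no member was listed at 0 in any library. The summed FPKM of 4 other hepatocyte markers (Ttr, Apoa1, Cps1 and Asgr1) lay between 10117 and 11576 in the 4 CD libraries and between 9402 and 9913 in the 4 HFD libraries, without overlap, beside the diet results below. On CD this sum was 10117 to 10335 in f/f-labelled and 10538 to 11576 in LKO-labelled libraries, and on HFD the labels overlapped. In whole liver, fewer cells of a type and less RNA per cell cannot be told apart, and this holds for every value below.

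Upstream sequences are shown for the 4 members that passed the adjusted test in at least 1 comparison below, so that the genes can be set against the sites their own products and RORα are known to bind. They were read from RefSeq windows on GRCm38.p6, 5′ to 3′ along the gene's own strand, and end at the base before the annotated start of the transcript. All 9 members had at least 1 window, 14 in total. Motifs found by exact search are in capitals.
Cebpa (chr7:35119043-35119292, plus strand): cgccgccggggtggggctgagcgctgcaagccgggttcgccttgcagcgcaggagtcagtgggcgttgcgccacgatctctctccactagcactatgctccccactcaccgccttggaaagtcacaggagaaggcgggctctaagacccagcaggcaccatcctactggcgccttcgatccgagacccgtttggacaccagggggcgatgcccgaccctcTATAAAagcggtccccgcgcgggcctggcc
Cebpb (chr2:167688665-167688914, plus strand): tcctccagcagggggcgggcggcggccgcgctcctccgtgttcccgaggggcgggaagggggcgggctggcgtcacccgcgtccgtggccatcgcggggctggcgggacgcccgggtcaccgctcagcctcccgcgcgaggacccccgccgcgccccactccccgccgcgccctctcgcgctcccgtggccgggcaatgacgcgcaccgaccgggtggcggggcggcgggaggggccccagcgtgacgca
Nr1i3 (chr1:171213720-171213969, plus strand): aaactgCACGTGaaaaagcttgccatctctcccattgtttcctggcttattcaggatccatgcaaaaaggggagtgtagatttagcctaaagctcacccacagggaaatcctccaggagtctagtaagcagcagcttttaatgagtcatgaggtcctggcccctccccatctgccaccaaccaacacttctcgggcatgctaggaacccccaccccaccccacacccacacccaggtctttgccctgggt
Hnf4a (chr2:163546905-163547154, plus strand, the downstream of 2 windows): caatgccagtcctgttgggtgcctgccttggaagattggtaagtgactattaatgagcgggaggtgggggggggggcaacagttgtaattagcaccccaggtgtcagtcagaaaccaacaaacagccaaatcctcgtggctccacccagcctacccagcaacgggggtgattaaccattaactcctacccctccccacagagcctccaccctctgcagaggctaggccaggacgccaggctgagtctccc

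The search covered both strands for the nuclear receptor half-site AGGTCA, the forkhead site TGTTTAC, the C/EBP site TTGCNNAA, the HNF4 site CAAAGTCCA and the PAR bZIP site TTANGTAA, of which TTGCNNAA and TTANGTAA can overlap. These were present in 14.0%, 3.17%, 9.56%, 0.384% and 2.06% of 32851 upstream windows of the genome respectively. None of these 5 strings occurred in the 4 windows printed above. The study gives the core of the RORα site as (A/G)GGTCA, and the GGGTCA form was not searched. Its letters are in the printed window of Cebpb, and their share of all windows was not counted. Among the other members, AGGTCA lay 64 bases before a start of Nr5a2 and 184 bases before a start of Thrb, TGTTTAC lay 141 bases before the start of Foxa1, and TTGCNNAA lay 243 bases before another start of Nr5a2. A pair of further strings, chosen after the windows had been seen, gave the capitals above: TATAAA, the TATA box, 30 bases before the start of Cebpa (12.4% of all windows), and CACGTG, the E-box bound by circadian factors, 244 bases before the start of Nr1i3 (6.02% of all windows). TATAAA also occurred in a window each of Nr5a2, Foxa2 and Thrb, and CACGTG in a window of Thrb. The window of Cebpb held 81.6% G and C and that of Cebpa 66.4%, against a median of 52.4% over all windows. A match is a description of letters and not a site of binding, and its absence says only that these letters are not in the window.

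By level, the members ran from the 96.6th percentile of the tested genes for Nr1i3 to the 46.0th for Foxa1. Nr1i3 had a mean of 187 FPKM over the 8 libraries, followed by Hnf4a (118), Cebpa (85.5), Cebpb (40.9), Nr1i2 (26.5), Nr5a2 (15.4), Foxa2 (10.7), Thrb (7.16) and Foxa1 (5.74). FPKM is per transcript length, so these levels can be set against each other, with less certainty where genes share exons. The exons of Nr1i3 share 74.9% of their bases with the opposite-strand gene Tomm40l, and those of Cebpb 20.7% with Tmem189. The library kit does not mark strand. Only the ranges of Cebpa and Cebpb and of Nr1i2 and Nr5a2 did not overlap among neighbours in this order, although Nr1i3 lay above Hnf4a, and Hnf4a above Cebpa, within each of the 8 libraries. Foxa2 lay above Thrb in 6 libraries and below Nr5a2 in 6.

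The members differed in how much they varied over the 8 libraries. The coefficient of variation was 44.9% for Foxa2, 28.4% for Cebpb, 23.4% for Nr1i3 and 17.7% for Cebpa, but 4.90% for Nr5a2 and 7.61% for Thrb, against a median of 13.0% over the 11634 tested genes. Foxa1 (14.3%) and Nr1i2 (12.8%) lay close to that median and Hnf4a below it. All 9 members had FPKM above 1 in all 8 libraries and entered the test.

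**Figure D1:**
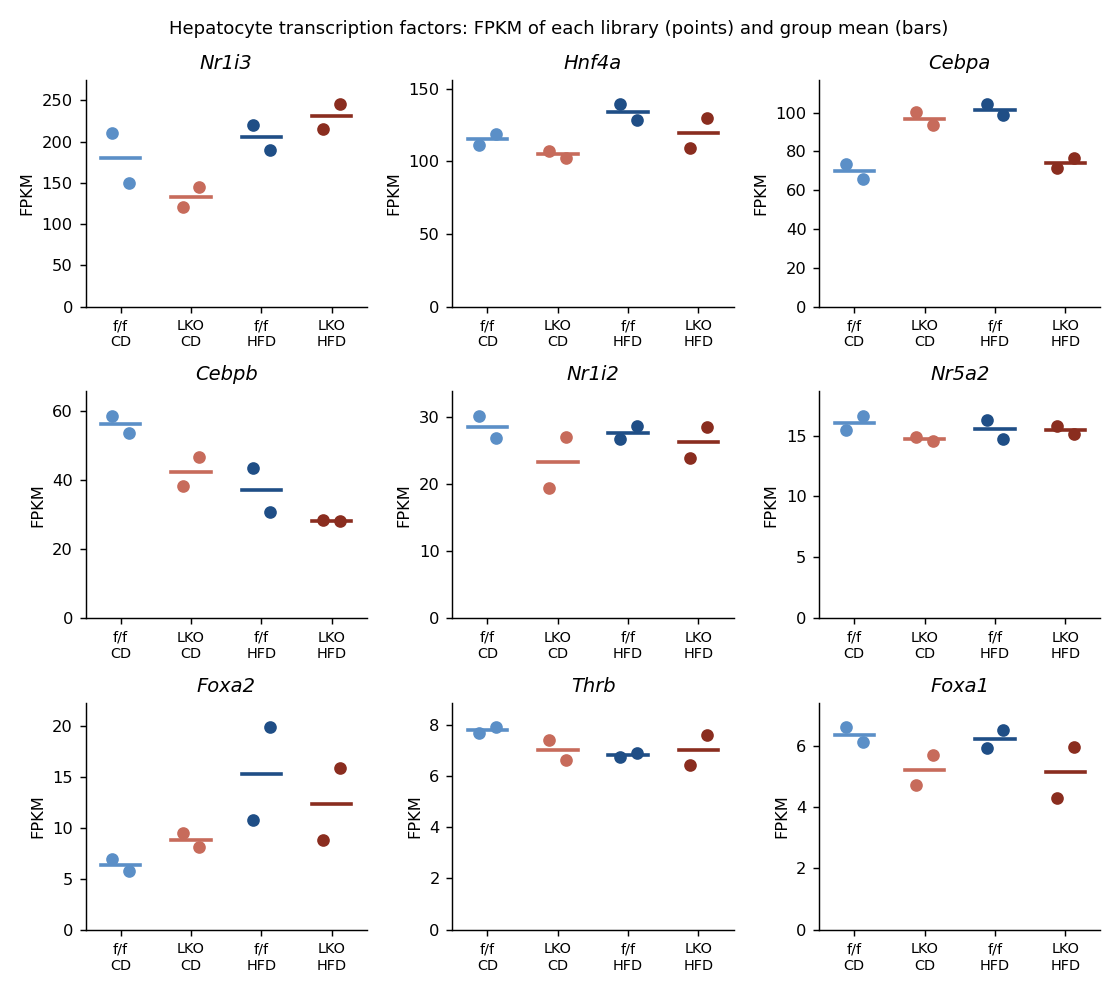
FPKM of the 9 members (vertical axes, each from 0) in the 4 groups (horizontal axes), with 1 point per library and a bar at the mean of 2 libraries. Cebpa is low in CD-fed f/f and HFD-fed LKO libraries and high in the other 4, and Cebpb is lower on HFD under each label. Nr1i3 has its highest mean in HFD-fed LKO libraries, and Nr5a2 and Thrb are nearly level.

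Of the 9 members, 4 passed the adjusted test in at least 1 of 3 diet comparisons, and no member passed it between the genotypes. The share of all tested genes passing at least 1 of the 3 was not counted, and shares for each comparison follow. Cebpa rose with HFD in the f/f-labelled libraries, Nr1i3 rose with HFD in the LKO-labelled libraries and over both genotypes, and, over both genotypes, Hnf4a rose and Cebpb fell with HFD. A fold change is the gap between group means on the quantile-normalized log2(FPKM + 1) scale, which understates changes of low values, and p-values are from limma fitted to all 8 libraries with Benjamini-Hochberg adjustment over 11634 genes. The number of members that passed was 1 of 9 for HFD against CD in f/f (1.33% of all tested genes passed), 1 of 9 in LKO (3.02%) and 3 of 9 for diet averaged over genotypes (9.89%). It was 0 of 9 between genotypes on CD (0.0172%), on HFD (0.043%), averaged over diets (0.103%) and for the difference of the genotype contrast between diets (0.0344%). At an unadjusted p under 0.05 the genotype counts were 2 of 9 on CD (12.3% of tested genes), 1 of 9 on HFD (9.58%), 1 of 9 averaged over diets (13.5%) and 2 of 9 for the difference between diets (8.35%). For diet they were 4 of 9 in f/f (19.2%), 4 of 9 in LKO (21.3%) and 5 of 9 averaged over genotypes (27.9%).

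**Figure D2:**
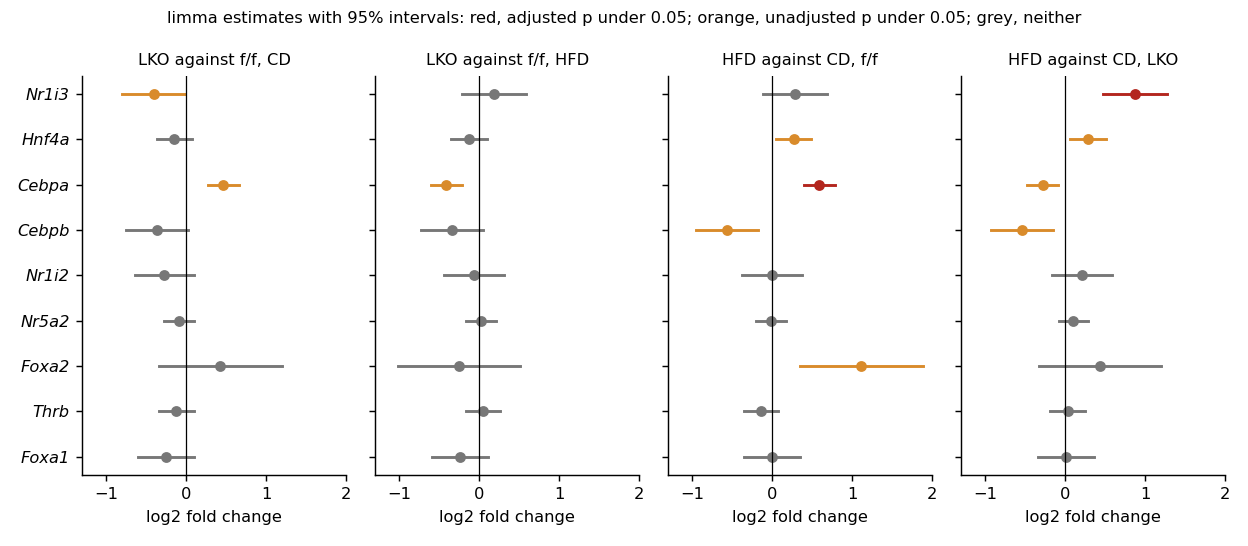
Log2 fold changes (horizontal axes, log2(FPKM + 1) scale) of the 9 members with 95% intervals from limma for genotype on each diet and diet under each genotype label. Adjusted p-values under 0.05 (red) are seen for Cebpa with HFD in f/f (0.59) and Nr1i3 with HFD in LKO (0.88), and the Cebpa estimate is positive on CD and negative on HFD between genotypes.

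Markers of the position of hepatocytes along the lobule moved with diet beside the diet results. The summed FPKM of 6 pericentral markers (Glul, Oat, Cyp2e1, Cyp1a2, Slc1a2 and Axin2) was 4959 to 5887 on CD and 6483 to 7895 on HFD. That of 6 periportal markers (Hal, Sds, Gls2, Cyp2f2, Pck1 and Hsd17b13) was 1991 to 2449 on CD and 1359 to 1717 on HFD. On CD the pericentral sum also differed by label, 5500 to 5887 in f/f-labelled and 4959 to 5208 in LKO-labelled libraries, without overlap. The labels overlapped for the pericentral sum on HFD and for the periportal sum on both diets. With diet averaged over genotypes, 2 pericentral markers rose and 1 fell, and 1 periportal marker rose and 3 fell. Summed stellate cell markers were 13.0 to 16.5 on CD and 17.8 to 23.5 on HFD, and adipocyte markers 6.72 to 9.90 and 9.93 to 15.9, with Adipoq, Plin1, Retn and Lep at 0 in at least 1 library. The stellate sum did not overlap between labels on CD, 15.3 to 16.5 in f/f-labelled and 13.0 to 14.9 in LKO-labelled libraries. Nor did the adipocyte sum on HFD, 9.93 to 11.1 in f/f-labelled and 14.2 to 15.9 in LKO-labelled libraries. On the other diet the labels overlapped for both sums. Exocrine pancreas markers moved with the genotype label, 9.85 to 14.0 in f/f-labelled and 4.62 to 6.18 in LKO-labelled libraries, with 3 of 4 at or under 1 FPKM in all. Macrophage markers (7) summed to 61.7 to 74.5 in HFD-fed f/f-labelled and 76.6 to 108 in HFD-fed LKO-labelled libraries, without overlap, and to 76.9 to 104 on CD. Leukocyte markers (7) summed to 3.59 to 3.72 and 3.77 to 5.00 in the same HFD groups and to 3.70 to 4.45 in f/f-labelled and 3.30 to 3.55 in LKO-labelled libraries on CD, with Cd8a and S100a8 at 0 in at least 1 library. Erythroid markers (3) summed to 190.0 to 386 in CD-fed and 99.0 to 153 in HFD-fed LKO-labelled libraries, where 1 of 3 fell with HFD, and to 75.2 to 307 and 54.8 to 183 in the f/f-labelled libraries. Endothelial markers (6) summed to 45.1 to 46.1 on CD and 50.3 to 52.8 on HFD with the f/f label, and overlapped between diets with the LKO label (36.6 to 47.9 and 44.3 to 55.6). Cholangiocyte markers (6) summed to 17.9 to 31.5, with Cftr at 0 in at least 1 library. The part of these cell types in the results for the members was not tested.

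Cebpa (ENSMUSG00000034957, chromosome 7, 35119293 to 35121928 on the plus strand of GRCm38), the gene of C/EBPα, was the only member whose genotype labels crossed between diets without overlap. It had 73.6 and 65.9 FPKM in CD-fed f/f-labelled libraries, 100.1 and 93.7 in CD-fed LKO-labelled libraries, 104 and 98.5 in HFD-fed f/f-labelled libraries and 71.6 and 76.3 in HFD-fed LKO-labelled libraries. The CD-fed f/f and HFD-fed LKO libraries were low, the other 4 were high, and the groups did not overlap in any of the 4 simple comparisons. The genotype estimates of Foxa2, Nr1i3, Nr5a2 and Thrb also changed sign between diets, but their libraries overlapped on HFD. With HFD, Cebpa rose by 0.59 in the f/f-labelled libraries (log2 fold change, standard error 0.08, limma adjusted p = 0.037). In the LKO-labelled libraries the HFD value was lower, at −0.28 (log2 fold change, standard error 0.08, limma adjusted p = 0.112).

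Between the genotypes, the log2 fold change of Cebpa was 0.46 on CD (95% interval 0.27 to 0.65, limma adjusted p = 0.154) and −0.41 on HFD (95% interval −0.60 to −0.22, limma adjusted p = 0.228). The difference between these, HFD minus CD, was −0.87 (95% interval −1.15 to −0.60, limma adjusted p = 0.229) and ranked 7 of 11634 genes by p, although it did not pass the adjusted test. Averaged over the diets, the genotype estimate was 0.03 (95% interval −0.11 to 0.16). These contrasts share their libraries, so they are not separate pieces of evidence. LKO-labelled libraries above on CD and below on HFD without overlap, as seen for Cebpa, was the pattern of 3.58% of tested genes, and the full crossed pattern in all 4 comparisons was that of 1.33%. Genotypes apart in opposite directions on the diets, either way round, made up 6.71% of tested genes, and diets apart in opposite directions under the labels 5.27%. Leaving out any 1 of the 8 libraries moved the difference between −0.94 and −0.81, and the adjusted p of the rise with HFD in f/f lay between 0.070 and 0.196 without 1 library, so that call rests on having all 8. The exons of Cebpa share 51 bases, 1.93% of the total, with the antisense gene Gm45091, and the library kit does not mark strand.

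**Figure D3:**
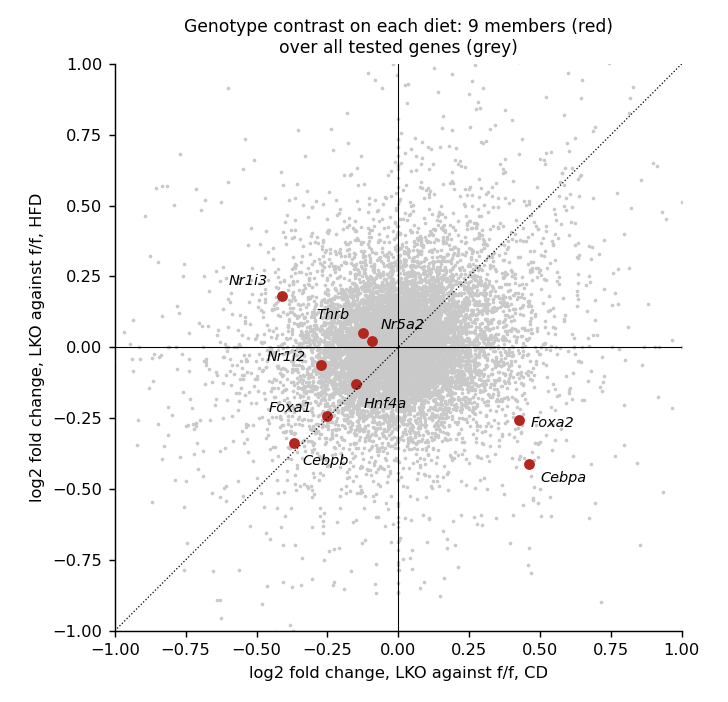
Log2 fold change between genotype labels, LKO minus f/f, on CD (horizontal) and HFD (vertical), 9 members in red over the tested genes in grey, with a dotted line of equal change. Cebpa and Foxa2 lie at the lower right (0.46 and −0.41 for Cebpa), whereas Cebpb, Foxa1 and Hnf4a lie close to the dotted line, and 240 of the 11634 genes fall outside the axes.

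Cebpb (ENSMUSG00000056501, chromosome 2, 167688915 to 167690418, plus strand), the gene of C/EBPβ, had its highest values in CD-fed f/f-labelled libraries. It had 58.6 and 53.5 FPKM there, 38.2 and 46.7 in CD-fed LKO-labelled, 43.5 and 30.6 in HFD-fed f/f-labelled and 28.3 and 28.1 in HFD-fed LKO-labelled libraries. Both HFD groups lay below their CD groups without overlap, and both LKO groups lay below their f/f groups on the same diet. Averaged over the genotypes, Cebpb fell by 0.55 with HFD on the log2 scale (standard error 0.12, limma adjusted p = 0.032), with an adjusted p between 0.028 and 0.115 without 1 library, under 0.05 in 1 case of 8. The separate diet estimates were −0.57 in f/f (limma adjusted p = 0.139) and −0.54 in LKO (limma adjusted p = 0.128), and the genotype estimates were −0.37 on CD and −0.34 on HFD (−0.35 averaged over diets, limma adjusted p = 0.259, and −0.23 without HFD-fed f/f-labelled library 1). Of the exon bases of Cebpb, 20.7% are shared with Tmem189, whose FPKM was 10.9 to 15.8 and whose genotype estimate on CD was 0.46, opposite in sign.

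Set against each other within a library, the Cebpa to Cebpb ratio was 1.26 and 1.23 in CD-fed f/f-labelled libraries and between 2.01 and 3.22 in the other 6. The mean log2 ratio was 1.43 ± 0.184 (SD, n = 4 libraries) on HFD and 0.76 ± 0.533 (SD, n = 4 libraries) on CD, a difference of 0.67 (two-sided exact permutation test, p = 0.086, adjusted p = 0.171 over 6 ratio tests). By genotype the ratio differed by 0.40 (exact permutation p = 0.343). The smallest p that 4 libraries against 4 allow is 0.029, and the diet groups overlapped.

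**Figure D4:**
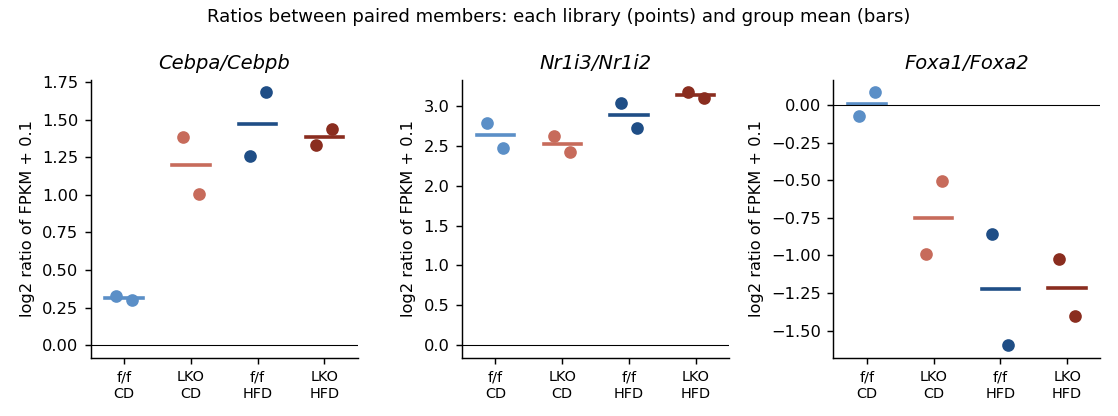
Log2 ratio of FPKM + 0.1 between paired members (vertical axes) in the 4 groups, with 1 point per library and a bar at the mean of 2. The CD-fed f/f libraries have the lowest Cebpa to Cebpb ratio (0.33 and 0.30) and a Foxa1 to Foxa2 ratio near 0, and the HFD-fed LKO libraries have the highest Nr1i3 to Nr1i2 ratio.

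The receptors of foreign chemicals come next. Nr1i3 (ENSMUSG00000005677, chromosome 1, 171213970 to 171220701, plus strand), the gene of CAR, had 209.9 and 150 FPKM in CD-fed f/f-labelled libraries, 121 and 145 in CD-fed LKO-labelled, 220.4 and 190.4 in HFD-fed f/f-labelled and 216 and 246 in HFD-fed LKO-labelled libraries. Values on HFD exceeded those on CD without overlap among LKO-labelled libraries, whereas the f/f-labelled libraries overlapped between diets. Nr1i3 rose with HFD in LKO by 0.88 (log2 fold change, standard error 0.17, limma adjusted p = 0.047) and by 0.58 averaged over the genotypes (standard error 0.12, limma adjusted p = 0.030, and 0.036 to 0.113 without 1 library). In f/f the estimate was 0.29 (95% interval −0.11 to 0.69).

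Between genotypes, the Nr1i3 estimate was −0.41 on CD (limma adjusted p = 0.395) and 0.18 on HFD (limma adjusted p = 0.775), and the difference of 0.59 had a limma adjusted p of 0.588. Without any 1 of the 8 libraries the adjusted p of the rise in LKO lay between 0.060 and 0.205, and without CD-fed f/f-labelled library 1 the genotype estimate on CD was −0.18 and the difference between diets 0.36. The exons of Nr1i3 share 74.9% of their bases with Tomm40l, a mitochondrial import gene on the opposite strand, and without strand the reads of the pair cannot be told apart. Tomm40l had FPKM of 37.3 to 71.0 and moved alike, with estimates of 0.78 for HFD in LKO (limma adjusted p = 0.066) and −0.49 for genotype on CD.

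Nr1i2 (ENSMUSG00000022809, chromosome 16, 38248323 to 38294824, minus strand), the gene of PXR, had 30.3 and 26.9 FPKM in CD-fed f/f-labelled libraries, 19.5 and 27.1 in CD-fed LKO-labelled, 26.7 and 28.8 in HFD-fed f/f-labelled and 23.9 and 28.6 in HFD-fed LKO-labelled libraries. All 4 groups overlapped. The diet estimates were −0.01 in f/f (95% interval −0.38 to 0.37) and 0.20 in LKO (−0.17 to 0.58), and the genotype estimates were −0.27 on CD and −0.06 on HFD. The Nr1i3 to Nr1i2 ratio was 0.43 higher on HFD on the log2 scale (exact permutation p = 0.057, adjusted p = 0.171) and 0.07 higher in LKO-labelled libraries (exact permutation p = 0.771).

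Listed targets of CAR and PXR moved with diet in both directions. Of 20 genes, 18 were tested. Cyp2b9 rose with HFD by 2.95 in f/f and 3.18 in LKO, and 5 genes, Cyp2b10, Cyp2c55, Cyp3a11, Ces2a and Gstm3, fell under both, while Cyp2c29 fell in f/f, where its log2 fold change was −0.96. Cyp2b10 and Cyp3a11, the usual reporters of CAR and PXR activity in mouse liver, had 10.8 ± 0.849 and 1039 ± 8.53 FPKM (SD, n = 2 libraries) on CD and 1.74 ± 0.167 and 256 ± 59.5 FPKM (SD, n = 2 libraries) on HFD in f/f-labelled libraries. Their log2 fold changes were −2.07 (limma adjusted p = 0.009) and −1.92 (limma adjusted p = 0.020) in f/f and −1.03 and −1.14 in LKO. The gene encoding CAR rose in LKO while these fell. In f/f the log2 fold change was −1.73 for Cyp2c55 and −1.92 for Gstm3, a glutathione transferase.

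The median of the 18 tested targets was −0.22 for HFD in f/f and 0.10 in LKO, against 0.01 for all tested genes in each. For the difference of the genotype contrast between diets it was 0.41, against 0.01 for all tested genes, and 8 of 18 genes were higher at an unadjusted p under 0.05, where 4.35% of all tested genes were. None passed the adjusted test between genotypes, where Cyp3a11 had an estimate of 0.96 on HFD (limma adjusted p = 0.228). Near-identical Cyp2b, Cyp2c and Cyp3a genes share reads, so that their separate values are uncertain.

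**Figure D5:**
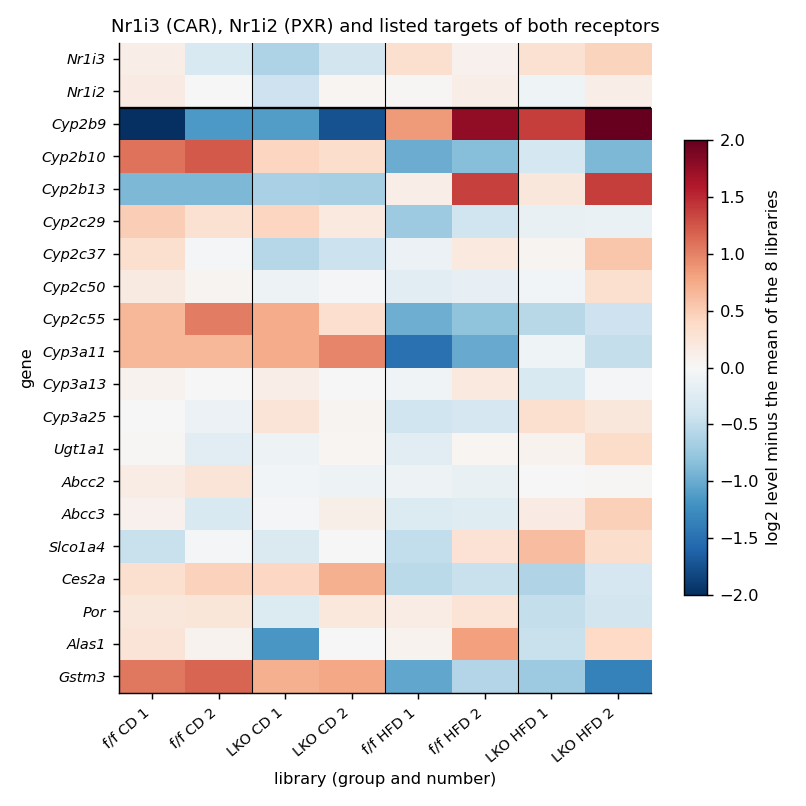
Log2 level of each gene in each library (columns, by group and number) minus the gene's mean over the 8 libraries, blue lower and red higher, for Nr1i3, Nr1i2 and the 18 tested targets. Cyp2b9 and Cyp2b13 are red on HFD, and Cyp2b10, Cyp2c55, Cyp3a11 and Gstm3 are blue on HFD.

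Hnf4a (ENSMUSG00000017950, chromosome 2, 163506808 to 163572910, plus strand) had 112 and 119 FPKM in CD-fed f/f-labelled libraries, 107 and 102 in CD-fed LKO-labelled, 139.5 and 128 in HFD-fed f/f-labelled and 109.5 and 129.9 in HFD-fed LKO-labelled libraries. The HFD libraries were above the CD libraries of the same genotype without overlap, but not above all CD libraries. Averaged over genotypes Hnf4a rose by 0.28 with HFD (log2 fold change, standard error 0.07, limma adjusted p = 0.048), and the diet estimates were 0.27 in f/f and 0.29 in LKO. The genotype estimates were −0.15 on CD (95% interval −0.37 to 0.07) and −0.13 on HFD (95% interval −0.35 to 0.09). The call was lost without any 1 library, with adjusted p between 0.069 and 0.135, and under 5 of 8 other alternatives, where it reached 0.119 without normalization.

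The forkhead genes were both at the low end of the members' levels. Foxa2 (ENSMUSG00000037025, chromosome 2, 148042877 to 148046969, minus strand) had 6.96 and 5.77 FPKM in CD-fed f/f-labelled libraries, 9.48 and 8.15 in CD-fed LKO-labelled, 10.8 and 19.9 in HFD-fed f/f-labelled and 8.87 and 15.9 in HFD-fed LKO-labelled libraries. Library 2 of both HFD groups was the higher, and the HFD-fed f/f group, lowest 10.8, lay above all CD-fed libraries. The estimate for HFD in f/f was 1.11 (95% interval 0.35 to 1.88, limma adjusted p = 0.139), the widest of any member, and was 0.70 without HFD-fed f/f-labelled library 2 and 1.53 without library 1. It was 0.43 in LKO, where the 95% interval included 0. Averaged over genotypes it was 0.77 (limma adjusted p = 0.081).

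Foxa1 (ENSMUSG00000035451, chromosome 12, 57540628 to 57546916, minus strand) had 6.61 and 6.13 FPKM in CD-fed f/f-labelled libraries, 4.71 and 5.71 in CD-fed LKO-labelled, 5.94 and 6.52 in HFD-fed f/f-labelled and 4.30 and 5.98 in HFD-fed LKO-labelled libraries. The LKO-labelled libraries were lower on CD without overlap, and on HFD the groups overlapped. The diet estimates were −0.01 in f/f and 0.01 in LKO, with intervals of −0.35 to 0.34 and −0.34 to 0.36, and the genotype estimates were −0.25 on CD and −0.24 on HFD (averaged, −0.25, limma adjusted p = 0.372, and −0.16 without HFD-fed LKO-labelled library 1). The Foxa1 to Foxa2 ratio differed by −0.85, HFD minus CD, on the log2 scale (exact permutation p = 0.057, adjusted p = 0.171) and by −0.37, LKO minus f/f (exact permutation p = 0.429).

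Of the genes with FPKM above 1 in all 8 libraries (9839 compared), those whose profile was most like that of Foxa2, the member with the widest range of group means, were D630039A03Rik, Actg1 and Spry4, with root mean square distances of 0.17, 0.19 and 0.26 on the log2 scale over 8 libraries. Actg1, a cytoskeletal actin gene, was likewise highest in library 2 of the HFD groups. For Cebpa, chosen after its values had been seen, the nearest were Abhd14a, Dnph1 and Gm5812 at 0.09, 0.12 and 0.12.

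LRH-1 and TRβ, the members with least spread, had no adjusted or unadjusted p under 0.05 in any comparison, which also held for Nr1i2 and Foxa1. For Foxa1 the genotype estimate averaged over diets came close, with an unadjusted limma p of 0.0501. That p was under 0.05 in 5 of 8 alternatives. Nr5a2 (ENSMUSG00000026398, chromosome 1, 136842571 to 136960448, minus strand) lay between 14.5 and 16.6 FPKM in all 8 libraries, with 15.5 and 16.6 in CD-fed f/f-labelled and 14.9 and 14.5 in CD-fed LKO-labelled, 16.3 and 14.8 in HFD-fed f/f-labelled and 15.8 and 15.1 in HFD-fed LKO-labelled libraries. Its simple estimates ran from −0.09 to 0.10, and the intervals reached no further than −0.28 and 0.29. Thrb (ENSMUSG00000021779, chromosome 14, 17660261 to 18038090, plus strand) lay between 6.44 and 7.90 FPKM, with 7.67 and 7.90 in CD-fed f/f-labelled, 7.40 and 6.63 in CD-fed LKO-labelled, 6.74 and 6.89 in HFD-fed f/f-labelled and 6.44 and 7.58 in HFD-fed LKO-labelled libraries. Its estimates ran from −0.14 to 0.05. Changes inside these intervals cannot be told from none with 2 libraries a group.

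Non-overlap of the libraries was common. LKO-labelled and f/f-labelled libraries did not overlap on CD for 8 of 9 members, 6 lower and 2 higher in LKO, where 43.3% of all tested genes did not overlap (22.6% lower and 20.8% higher). On HFD this held for 2 of 9 members (42.1% of tested genes). HFD and CD did not overlap for 5 of 9 members in f/f (49.9%) and for 5 of 9 in LKO (53.2%), and over all 8 libraries for 0 of 9 members by genotype (4.91%) and 0 of 9 by diet (16.5%).

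Other genes that mark or serve the liver were read from lists chosen with earlier results known. Of 25 other liver transcription factors, 24 were tested, and Thra, the gene of the second thyroid hormone receptor, rose with HFD by 0.66 in f/f (limma adjusted p = 0.034) and by 0.44 in LKO (limma adjusted p = 0.045). Averaged over genotypes, 4 of 24 rose, Thra, Gata6, Rxra and Atf5. Rxra, a partner of CAR, PXR and the thyroid hormone receptors, had estimates of 0.32 and 0.22. Atf5 had 0.81 in f/f (limma adjusted p = 0.063), and Tbx3 had 0.72 in f/f (limma adjusted p = 0.092). None of 13 tested coregulators passed in any comparison (3 of 13 were lower with HFD in f/f at an unadjusted p under 0.05, and 1 lower between genotypes on CD, Ppargc1a at −0.55). Hdac3, Ncoa2 and Crebbp had HFD estimates of 0.22, −0.32 and 0.01 in LKO.

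Among 19 tested targets of HNF4α, FOXA and C/EBPα, G6pc, the last enzyme of glucose release, fell with HFD, with log2 fold changes of −2.18 in f/f (limma adjusted p = 0.002) and −1.91 in LKO (limma adjusted p = 0.007). Tat, tyrosine aminotransferase, fell by 1.53 in f/f (limma adjusted p = 0.027), with −0.74 in LKO. F7, a clotting factor, had −0.35 in LKO. Averaged over genotypes on the quantile-normalized scale, Ttr and Apob were called higher on HFD and Tat, G6pc and Pck1 lower. The mean FPKM of Ttr was 4010 on CD and 4115 on HFD with the f/f label. With the LKO label it was lower on HFD, at 4432 on CD and 4251 on HFD. Alb, listed at 0 in 4 libraries, entered the normalization, and its part in the values of the most abundant genes was not tested. The list median was −0.08 in f/f and −0.12 in LKO against 0.01 for all genes in each.

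Of 9 tested targets of thyroid hormone receptors, Serpina7, thyroxine-binding globulin, rose with HFD by 0.88 in f/f (limma adjusted p = 0.038) and 0.82 in LKO (limma adjusted p = 0.030), and G6pc, on this list as well, fell. Klf9 had estimates of 0.72 and 0.52, and Thrsp −0.50 and −1.90. Of 9 tested LRH-1 targets, Slc10a1, the bile acid importer, rose by 0.78 in f/f (limma adjusted p = 0.038) and 0.86 in LKO (limma adjusted p = 0.019), and Scarb1, the HDL receptor, by 0.40 and 0.37 (limma adjusted p = 0.049 and 0.042). Cyp7a1, the rate-limiting enzyme of bile acid synthesis, had genotype estimates of −1.23 on CD (limma adjusted p = 0.196) and −0.94 on HFD (limma adjusted p = 0.328). Slc10a1 and Scarb1 rose while Nr5a2 itself stayed between 14.5 and 16.6 FPKM.

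The 12 listed genes of the acute-phase response, which C/EBPβ is known to take part in, all had positive genotype estimates on CD, LKO minus f/f. The median estimate was 0.47, 5 of 12 had an unadjusted p under 0.05 (6.15% of tested genes were higher) and none passed the adjusted test. On HFD the median genotype estimate was −0.02, and 6 of 12 were positive. There 1 gene was higher and 1 lower at an unadjusted limma p under 0.05 (9.58% of tested genes in either direction). With HFD in LKO, Saa1, Saa2, Orm1 and Orm2 fell, Saa1 with a log2 fold change of −3.75 (limma adjusted p = 0.021) and Saa2 with one of −3.87 (limma adjusted p = 0.036). In f/f the same 4 genes had HFD estimates of −2.30 (Saa1, limma adjusted p = 0.083), −2.51 (Saa2), −0.68 (Orm1) and −1.26 (Orm2), and averaged over genotypes all 4 fell, as did Fga. Saa1 had 726 ± 0.313 FPKM (SD, n = 2 libraries) on CD and 50.4 ± 16.3 FPKM (SD, n = 2 libraries) on HFD with the LKO label. Cebpb was lower in LKO-labelled than in f/f-labelled libraries on both diets, with estimates of −0.37 on CD and −0.34 on HFD. A link between Cebpb and these genes was not tested. Saa1 and Saa2, and Orm1 and Orm2, are near-identical pairs whose split is uncertain.

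Of 6 PAR bZIP and REV-ERB genes, which drive or repress daily rhythms, Nr1d1 rose with HFD by 1.05 in f/f (limma adjusted p = 0.037) and 1.35 in LKO (limma adjusted p = 0.018), and Hlf by 0.68 in LKO (limma adjusted p = 0.027). On HFD, Dbp had 65.4 ± 9.77 FPKM (SD, n = 2 libraries) with the f/f label and 32.4 ± 5.47 FPKM (SD, n = 2 libraries) with the LKO label (limma adjusted p = 0.144), and Nr1d2 had a genotype estimate of −0.36 (limma adjusted p = 0.228). Time of collection was not analysed here, so the phase of these genes was not tested.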

How the data were processed

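The authors trimmed paired-end reads of poly(A) RNA with cutadapt 1.0, aligned them to GRCm38 with TopHat2 2.0.7 and estimated expression with Cufflinks (versions from the submitters' processing notes), and deposited FPKM for 38283 genes in 8 libraries. Depth is not known from FPKM, and replicates are pools of separate mice. Here genes were matched to GENCODE M21 by identifier (36341 matched). The 11634 genes that exceeded 1 FPKM in any library were put on the log2(FPKM + 1) scale and quantile normalized. limma 3.58.1 (R 4.3.3) was fitted with a trend to 4 group means (4 residual degrees of freedom, 2.8 prior), with Benjamini-Hochberg adjustment over all tested genes. It replaced the study's permutation over relabelled libraries. Ratios of log2(FPKM + 0.1) were tested by two-sided exact permutation (SciPy 1.17.1), 6 tests adjusted together. The fit was tested on simulated data.

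The members and lists were chosen with earlier results of these data known. All 9 members are named, with up to 4 genes a list by smallest unadjusted p over the 4 simple contrasts and the 3 genes most like the member of widest range. Others are named where a count is 5 or fewer or where the text singles a gene out, chosen after their values were seen. Some listed genes, including some that this rule names, are not reported here. Tf and Prmt1 were not analysed here, and Alb was tested although listed at 0 in 4 libraries. Alternatives were no normalization, median centring, a smaller pseudocount (0.1), a filter of 1 FPKM in every library or of any value over 0, no trend, a replicate block, only the 4 libraries of a comparison, each library left out and, chosen after seeing the data, without genes listed at 0. Figures were drawn with matplotlib 3.10.9.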

Additional observations from a re-analysis of the deposited data

Results flagged for a closer look

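The genotype contrast of Cebpa differed between the diets by −0.87 on the log2 scale, HFD minus CD. It stood out because the LKO-labelled libraries lay above the f/f-labelled libraries on CD and below them on HFD, each without overlap, with an unadjusted p under 0.05 for the difference. The limma adjusted p of the difference was 0.229, ranging from 0.111 to 0.509 over the alternatives and left-out libraries, so it failed the correction over 11634 genes. LKO-labelled and f/f-labelled libraries lay apart in opposite directions on the diets for 6.71% of tested genes. No explanation was tested.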

How the results depend on the processing

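Of 1044 member values under the alternatives, 45 changed sign, none of them called, with a main size of at most 0.26. The ratios passed the test under no alternative, and without a library their smallest possible p is 0.057 and with the block 0.125, so those tests say nothing on stability. The number of members with an unadjusted p under 0.05 fell from 2 to 1 for genotype on CD and for the difference between diets under no normalization, median centring, FPKM above 0, no trend and the replicate block. For genotype averaged over diets it went from 1 to 2 under no normalization, a smaller pseudocount (0.1), a filter of 1 FPKM in every library, the replicate block and without genes listed at 0. Adjusted calls went from 1 to 0 for HFD in f/f (Cebpa) under FPKM above 0, no trend, the replicate block and 4 libraries only, and for HFD in LKO (Nr1i3) under these, no normalization and median centring. For diet averaged over genotypes they went from 3 to 1 without normalization and 0 with FPKM above 0. The averaged Hnf4a call was also lost with median centring, no trend and the block (adjusted p 0.072, 0.070 and 0.075). With 1 library left out, adjusted calls were 0 for HFD in f/f and in LKO and 0 to 1 averaged. Unadjusted counts were then 1 to 2 for genotype on CD, 1 to 2 on HFD, 1 to 3 for the difference, 2 to 4 for HFD in LKO, 0 to 3 for genotype averaged and 3 to 5 for diet averaged. These counts rest on few libraries, and the cause was not tested. Replicate numbers pair no animals, so losing a call with the block does not show a weaker effect. The deviations of same-numbered libraries correlated at 0.0644 between diets with the f/f label and 0.0870 with the LKO label. Between genotypes they correlated at 0.145 on CD and 0.0878 on HFD. Without genes listed at 0 these values were 0.0129 and 0.0351 between diets and 0.0211 and 0.0236 between genotypes. FPKM without counts allows no statement on depth.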
